A study of Mus musculus with 11 samples.

Results

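3T3-L1 cells, a mouse line grown as fibroblast-like preadipocytes and turned into fat cells in culture, were profiled on Affymetrix arrays after differentiation. The comparison described is that of dexamethasone with untreated cells, which used 6 of the 11 arrays of the series: 3 arrays of cells kept in 20 nM dexamethasone for 8 days with the medium changed every other day (DEX replicates 1 to 3), and 3 arrays of untreated adipocytes (control replicates 1 to 3). The members were all probe sets annotated with exactly 1 gene symbol, 34945 of 45101, which stood for 18193 genes. Each gene was read from its brightest probe set, and 15623 genes above the 25th percentile of probe set means, an intensity of 51.7, were tested. The other arrays of the series came from cells given 10 nM insulin in repeated additions (CI, n = 2) or 2 ng/ml tumour necrosis factor for 4 days (TNF, n = 3). They entered the fit, so that all groups shared an estimate of the spread, and they are set beside DEX at the end. All cells were harvested on the same day after differentiation, and the labels present each treatment as a way of making the cells insulin resistant. Dexamethasone was given in ethanol (0.01%). The protocol calls this carrier the control, but the labels of the control arrays say untreated, so it is unclear whether those cells received ethanol. The labels also give the tissue as adipose tissue, but the protocol describes only the cultured line. Replicates are labelled as experimental, and nothing says that each was a culture of its own, so all p-values measure the spread between these arrays alone, and that spread may be technical.

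Dexamethasone is a synthetic glucocorticoid that enters the cell and binds the glucocorticoid receptor, a transcription factor held in the cytoplasm by heat shock proteins until hormone is bound. In the nucleus the receptor binds palindromic DNA elements and raises the transcription of nearby genes, and it lowers that of many inflammatory genes, in part by contact with other transcription factors. In adipose tissue glucocorticoids are known for promoting fat cell differentiation, for changing the balance of fat storage and release, and for lowering the response to insulin. Because adipocytes also take part in the acute-phase and interferon responses, the genes below are grouped as hormone handling and receptor targets, immune genes, matrix genes, lipid genes and genes of insulin action and fuel use.

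The 6 arrays were alike in brightness, with medians of 125.8 to 129.5, and no quartile of the log2 intensities differed by more than 0.0488 between them. Rank correlations were 0.9961 to 0.9977 within groups and 0.9894 to 0.9914 between them. On the principal components of the 6 arrays, the first (81.0% of the variance) separated DEX from control and the second (7.60%) set DEX replicate 2 apart from the other DEX arrays. That array also had the highest ratio of the 3' to the 5' actin control probe sets, 1.73 against 1.49 to 1.58 in the other 5, and raised signals of 8 probe sets for spiked control RNAs. Leaving it out gave 3937 genes that passed in place of 4316. Of the markers that define adipocytes, Adipoq, the hormone adiponectin, was at 22828 ± 510.2 in control and 21645 ± 453 in DEX (SD, n = 3), and Fabp4, the fatty acid carrier of fat cells, was at 22632 ± 389.7 in control and 22995 ± 434 in DEX. Neither passed the test, and both lay near the brightest values of these arrays (22501 to 25933), where differences may be compressed. Among all 14 tested adipocyte markers, 2 passed as higher and 6 as lower (median -0.03). Their summed intensity was lower in every DEX array than in any control array. The preadipocyte gene Dlk1 (Pref-1), a surface protein that is switched off during differentiation, was still at 11252, 9704 and 8711 in the control arrays and 5507, 4403 and 4919 in the DEX arrays (log2 change -1.00, SE 0.10, adjusted p 1.32e-06). The other Dlk1 probe set changed by -0.20 and did not pass, so the size of the change is unsettled. In RNA from whole cultures, fewer cells of a type and less RNA per cell cannot be told apart.

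Dexamethasone changed 4316 of the 15623 genes (27.6%) at a Benjamini-Hochberg adjusted p under 0.05 in limma, 2189 (14.0%) higher and 2127 (13.6%) lower in DEX. Most changes were small. A change of more than 2-fold was seen for 107 of the higher (0.685% of all tested) and 173 of the lower genes (1.11%). The 3 DEX arrays lay wholly beyond the 3 control arrays for 6332 genes (40.5%), and 4191 genes (26.8%) met both that condition and the test. The median log2 change of all tested genes was 0.02. All changes below are log2 differences, DEX minus control, on log2(intensity + 16), which understates the change of dim genes. A gene is said to rise or fall only where it passed. Where all arrays of a group lay below the intensity of 51.7, the fold is given as a lower bound, the other group's mean log2 level against that limit. Counts of list members are to be read against the 14.0% and 13.6% of all genes, and the lists describe these data without a test of their own. The lists were chosen with earlier results of these data known, so their counts are not independent of these data.

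**Figure D1:**
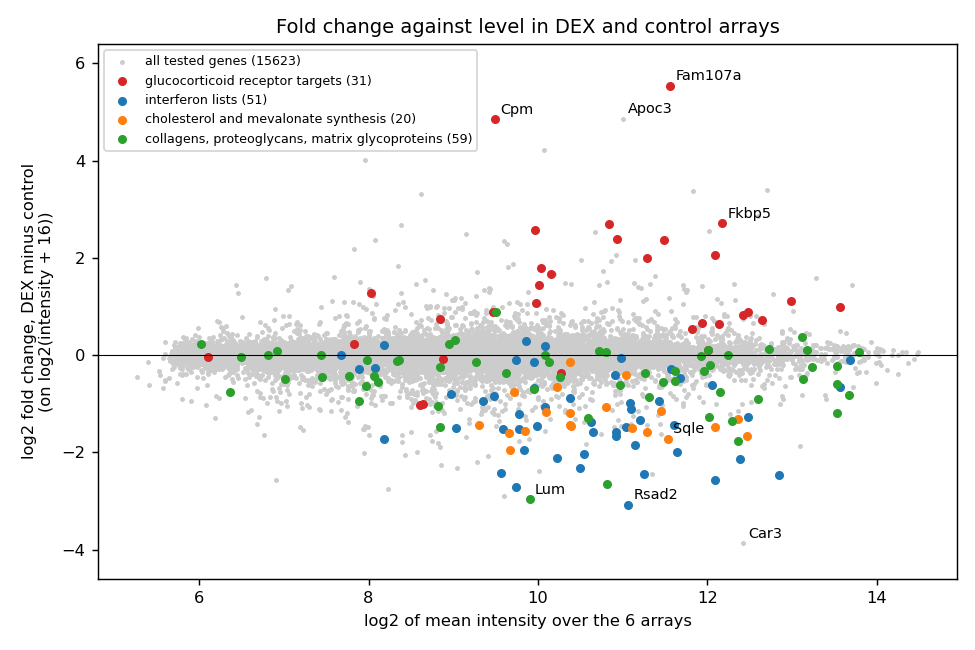
Log2 fold change (DEX minus control, y axis) against the log2 of the mean intensity over the 6 arrays (x axis) for the 15623 tested genes in grey, with 4 groups of gene lists in colour and their numbers of tested members in the key. Receptor targets lie mostly above 0, with Fkbp5 at 2.71, while nearly all members of the interferon and cholesterol lists lie below it, with Rsad2 at -3.07 and Sqle at -1.72. Cpm is drawn at its fitted value although its control arrays lie below the dim limit of 51.7.

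Of 8 tested genes for the receptor and the handling of steroids, 1 rose and 2 fell (median -0.03). Nr3c1, the glucocorticoid receptor itself, was at 2432, 2243 and 2321 in the control arrays and 1691, 1668 and 1604 in the DEX arrays (log2 change -0.49, SE 0.06, adjusted p 1.02e-05). Each DEX array was below each control array. Hsd11b1, the enzyme that regenerates active glucocorticoid inside fat cells, stood at 6843, 7887 and 8633 in the control arrays and 4693, 6138 and 4740.4 in the DEX arrays (log2 change -0.59, SE 0.10, adjusted p 0.000249), again without overlap. H6pd, which supplies that enzyme with NADPH in the endoplasmic reticulum, moved the other way, from 1552, 1325 and 1411 to 2439.9, 2189 and 2364 (log2 change 0.70, SE 0.09, adjusted p 4.12e-05). The changes for the mineralocorticoid receptor Nr3c2, the receptor chaperone Hsp90aa1, the co-chaperone Fkbp4 and the coactivators Ncoa1 and Ncoa2 were -0.04, -0.01, 0.08, 0.02 and -0.10, and none passed.

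Of 31 listed textbook targets of the receptor, 25 were higher, 3 were lower and 3 did not pass, and the median change was 0.98. Fkbp5, a chaperone that lowers the receptor's affinity for hormone, was at 1283, 1177 and 1183 in the control arrays and 8128, 7961 and 8045 in the DEX arrays (log2 change 2.71, SE 0.06, adjusted p 6.65e-14). The DEX arrays differed little from each other and lay far above control. Tsc22d3 (GILZ), an anti-inflammatory leucine zipper protein, was at 1132, 895 and 955 in the control arrays and 4146, 3579 and 4276 in the DEX arrays (log2 change 1.99, SE 0.10, adjusted p 1.42e-09). Per1, the clock gene with a well-known receptor site, was at 497, 542 and 438 in the control arrays and 1048, 868 and 860.2 in the DEX arrays (log2 change 0.89, SE 0.10, adjusted p 5.31e-06). Neither gene's groups overlapped. The transcription factors Zbtb16 and Klf9 were at 534, 449 and 647 against 1773, 1663 and 1766 (change 1.66 (SE 0.11)) and at 4233, 3765 and 3819 against 7148, 7283 and 6635 (change 0.83 (SE 0.06)). Cebpd, the early adipogenic factor that glucocorticoid induces, went from 1097, 919 and 752 to 5437, 4961 and 4052 (log2 change 2.37, SE 0.15, adjusted p 1.51e-08). All 3 factors were higher in every DEX array than in any control array.

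Several of these targets restrain signalling. Errfi1, an inhibitor of the epidermal growth factor receptor, was at 705, 629 and 518 in the control arrays and 3572, 3501 and 2777 in the DEX arrays (log2 change 2.38, SE 0.11, adjusted p 5.43e-10). Sgk1, a kinase that resembles Akt, was at 484, 511 and 369 in the control arrays and 1869, 1889 and 1152 in the DEX arrays (log2 change 1.79, SE 0.15, adjusted p 3.67e-07), and the lowest of its DEX values was that of replicate 3. Ddit4, an inhibitor of the growth kinase complex mTORC1, rose by 1.44 (SE 0.25), Dusp1, a phosphatase of MAP kinases, by 0.75 (SE 0.14), and Zfp36, which destabilises cytokine mRNAs, by 1.06 (SE 0.14). Mertk, a receptor tyrosine kinase for the uptake of dying cells, went from 304, 266 and 257 to 1712, 1902 and 1535 (log2 change 2.57, SE 0.08, adjusted p 1.10e-11). Its groups were far apart, as were those of the metal-binding metallothionein Mt2, at 1683, 1454 and 1904 in the control arrays and 6702, 7221 and 7192 in the DEX arrays (log2 change 2.06, SE 0.11, adjusted p 1.45e-09). Mt1 was at 8160.5 ± 628 in control and 16101 ± 836 in DEX (0.98 (SE 0.07)). The thioredoxin inhibitor Txnip (1.11 (SE 0.10)), glutamine synthetase Glul (0.88 (SE 0.08)) and the NF-kappaB inhibitor Nfkbia (0.72 (SE 0.07)) rose as well, as did Angptl4 (0.53 (SE 0.13)), an inhibitor of lipoprotein lipase.

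The 3 targets that fell were Tgm2, Rasd1 and Klf15. Rasd1, a Ras-like protein named for its induction by dexamethasone, was at 534, 491 and 586 in the control arrays and 261, 221 and 307 in the DEX arrays (log2 change -1.00, SE 0.12, adjusted p 1.15e-05). Tgm2, a protein crosslinking enzyme, was at 553, 504 and 531 and 225, 243 and 289 (log2 change -1.03, SE 0.10, adjusted p 1.75e-06). For both genes all DEX arrays were under the lowest control array. Klf15, a transcription factor of amino acid and glucose metabolism, was at 1385, 1312 and 1509 in the control arrays and 965, 1077 and 1192 in the DEX arrays (log2 change -0.38, SE 0.09, adjusted p 0.00386), with a smaller gap. Bcl6 (-0.09), Cdkn1c (-0.03) and Lox (0.10) did not pass.

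**Figure D2:**
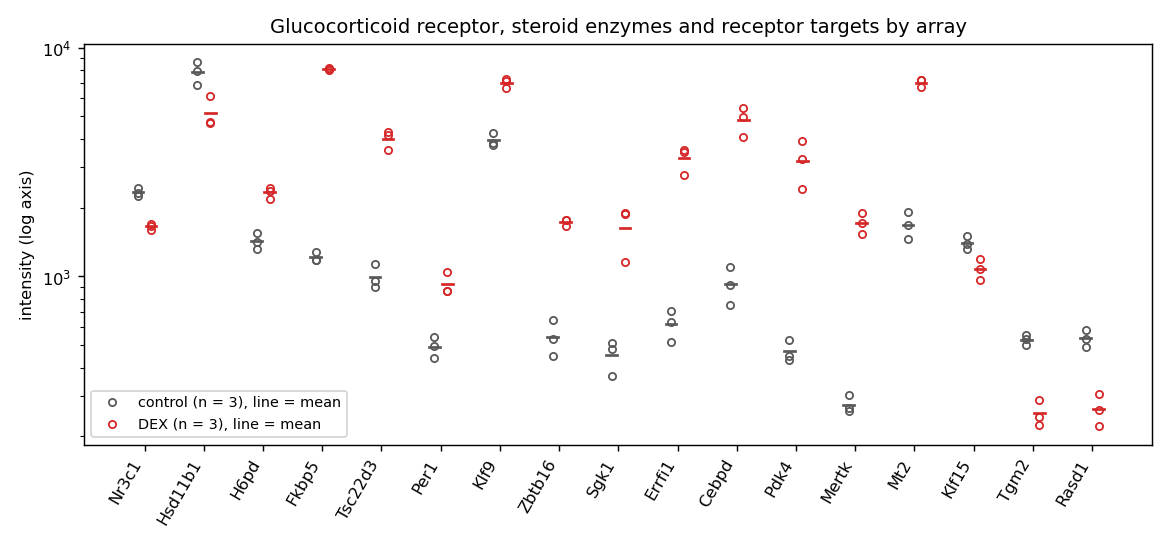
Intensity on each array (log axis) for the glucocorticoid receptor gene Nr3c1, the steroid enzymes Hsd11b1 and H6pd and 14 of the receptor targets, with control in grey, DEX in red and a line at each mean (n = 3). Fkbp5 rises from 1177 to 1283 in control to 7961 to 8128 in DEX, while Tgm2 and Rasd1 lie lower in all DEX arrays.

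Promoters were searched because the members that rose most include known receptor targets. RefSeq promoters of the mouse GRCm38.p6 assembly matched 12481 of the tested genes by symbol, 90 of the 107 that rose more than 2-fold and 120 of the 173 that fell more than 2-fold. The 250 bases before the start site were searched on both strands. The full receptor consensus, AGAACA and TGTTCT separated by 3 bases of any kind, was found in 1 of the 12481 promoters, that of Sgk1. A shortened palindrome, GNACA and TGTNC separated by 3 bases of any kind, which also matches wherever the full consensus does and was chosen after the full consensus had been searched, was found in 43 of all promoters (0.345%), in 6 of the 90 that rose more than 2-fold (6.67%) and in 0 of the 120 that fell more than 2-fold. The 6 were Fam107a, Map3k6, Serpina3n, Sgk1, Slc10a6 and Txnip. The hexamer AGAACA alone, part of the full consensus, was in 14.2% of all, 20.0% of the more than 2-fold higher and 15.8% of the more than 2-fold lower promoters. Among all genes that passed, it was in 12.6% of the higher and 12.5% of the lower promoters. Over the same genes, the shortened palindrome was in 0.615% of the higher (11 of 1788) and 0.419% of the lower promoters (7 of 1671). A match is a description of the letters and not a shown binding site.

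The palindromes of 4 genes that rose are printed to show how far each departs from the full consensus, as 100 bases, 5′ to 3′ on the gene's strand, all upstream of the annotated start, with the shortened palindrome in capitals. They lie at chr14:8309842-8309941 (minus strand) for Fam107a, chr10:21993658-21993757 (plus) for Sgk1, chr4:133240593-133240692 (plus) for Map3k6 and chr12:104406586-104406685 (plus) for Serpina3n.
Fam107a: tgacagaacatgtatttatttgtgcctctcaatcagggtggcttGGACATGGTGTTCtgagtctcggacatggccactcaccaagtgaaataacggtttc
Sgk1: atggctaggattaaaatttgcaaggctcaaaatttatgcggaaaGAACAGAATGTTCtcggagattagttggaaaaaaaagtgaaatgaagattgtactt
Map3k6: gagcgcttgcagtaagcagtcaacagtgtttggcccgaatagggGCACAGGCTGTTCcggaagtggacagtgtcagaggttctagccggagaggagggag
Serpina3n: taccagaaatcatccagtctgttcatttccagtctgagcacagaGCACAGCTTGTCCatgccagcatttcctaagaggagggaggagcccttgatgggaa
Only the Sgk1 window holds the full consensus. Its first match base lies 188 bases before the start, and those of Fam107a, Map3k6 and Serpina3n lie 118, 181 and 78 bases before it. Fam107a, an actin-associated protein, was at 103, 103 and 132 in the control arrays and 5856, 6301 and 5666 in the DEX arrays (log2 change 5.54, SE 0.11, adjusted p 1.80e-14). Map3k6, a stress kinase of the MAP kinase cascade, was at 149.6, 144 and 146 in the control arrays and 376, 409 and 346 in the DEX arrays (log2 change 1.27, SE 0.06, adjusted p 5.60e-10), and Serpina3n, a secreted protease inhibitor of the acute phase, at 370.1, 361 and 361 in the control arrays and 922, 858 and 835 in the DEX arrays (log2 change 1.22, SE 0.13, adjusted p 2.66e-06). In all 3 genes the lowest DEX array was above the highest control array.

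Outside the receptor list, the genes that rose most were of mixed function. Slc39a14 (ZIP14), an importer of zinc and iron, was at 450.4, 451 and 506 in the control arrays and 2995, 2449 and 2964 in the DEX arrays (log2 change 2.53, SE 0.11, adjusted p 3.67e-10). Vdr, the vitamin D receptor, was at 289, 237 and 209 in the control arrays and 1539, 1209 and 1170.4 in the DEX arrays (log2 change 2.34, SE 0.13, adjusted p 4.86e-09). Neither showed overlap of the groups. Adcyap1r1, a receptor for the peptide PACAP, was at 786, 798 and 698 against 2667, 3260.3 and 2916 (change 1.93 (SE 0.10)). Dpep1, a membrane dipeptidase, was at 719.8, 699 and 791 against 3069.5, 3251 and 3074 (change 2.07 (SE 0.06)). Trp53inp1, a stress protein induced by p53, was at 1006, 796 and 958 against 3814, 3474 and 3591 (change 1.97 (SE 0.09)). All 3 DEX arrays were at least 2-fold above control for each of these. Ctla2a, an inhibitor of cysteine proteases, rose by 2.28 (SE 0.15), Adgrg2, an adhesion receptor, by 2.19 (SE 0.06), Ampd3, an AMP deaminase, by 1.83 (SE 0.09), and the less characterised Map7d2, Cabp4 and Ccdc71l by 2.67, 2.36 and 1.96. Cpm, a membrane carboxypeptidase, went from 34.7, 35.7 and 29.5 to 1413, 1279 and 1537 (at least 27.2-fold higher in DEX, adjusted p 1.26e-15). Ear3, a member of the eosinophil ribonuclease family, went from 11.5, 13.5 and 16.3 to 381, 683 and 387 (at least 8.99-fold higher in DEX, adjusted p 6.67e-11), and Clca3a1, of a family of chloride channel regulators, from 1232, 1144 and 1195 to 7925, 6691 and 6782 (log2 change 2.56, SE 0.07, adjusted p 1.06e-12). For Cpm and Ear3 all control arrays were below the limit, so both entered the test through brighter groups alone. The probe sets of Ear3 and Clca3a1 are of the type that can bind transcripts of near-identical relatives, so which family member was measured is uncertain.

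Genes of the type I interferon system fell together. This system works through sensors of viral RNA and DNA, transcription factors that relay the interferon signal, and a large set of antiviral effector proteins. Of 17 tested sensors and transcription factors, 11 fell and 2 rose, with a median of -0.68. Zbp1, a sensor of Z-form nucleic acids, was at 1174, 1350.4 and 1337 in the control arrays and 171, 298 and 222 in the DEX arrays (log2 change -2.43, SE 0.13, adjusted p 1.67e-09). Irf7, the factor that amplifies interferon production, was at 2354, 2366 and 2495 in the control arrays and 664, 987 and 756 in the DEX arrays (log2 change -1.58, SE 0.10, adjusted p 1.99e-08). There was no overlap for either gene, and DEX replicate 2 held the highest Zbp1 value of its group. The RNA sensors Ifih1 (MDA5), Ddx58 (RIG-I), Dhx58 (LGP2) and Tlr3 changed by -1.51 (SE 0.10), -0.99 (SE 0.06), -1.52 (SE 0.08) and -1.50 (SE 0.08). Stat2 (-0.84 (SE 0.09)) and Irf9 (-0.68 (SE 0.08)), partners in the factor that interferon activates, fell by less, and the interferon-induced protease Usp18, which damps the receptor, went from 4924, 5378 and 5004 to 1105, 1799 and 1028 (log2 change -1.99, SE 0.14, adjusted p 4.74e-08). The receptor chain Ifnar1 (-0.09), the kinase Jak1 (-0.28), the adaptor Mavs (-0.14) and Irf1 (-0.05) did not pass, while the kinase Tyk2 rose by 0.22 (SE 0.05). The count of 2 that rose became 1 without control replicate 2 or without DEX replicate 2.

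Of 34 effectors 31 fell and 1 rose (median -1.40), and in 33 of them the DEX and control arrays did not overlap, against 40.5% of all genes. Ifit3, which binds foreign RNA with its relatives, was at 12926, 12694 and 11818 in the control arrays and 2034, 2915 and 1927 in the DEX arrays (log2 change -2.46, SE 0.12, adjusted p 6.62e-10). Ifit1 was at 8816, 9097 and 8115 and 1879, 2687 and 1517 (log2 change -2.13, SE 0.14, adjusted p 2.65e-08), and Oasl2, of the family of 2'-5' oligoadenylate synthetases, at 3935, 4228 and 4205 and 596, 932 and 736 (log2 change -2.45, SE 0.11, adjusted p 3.07e-10). In each of these the highest DEX value was that of replicate 2, still below all control arrays. Cmpk2, a mitochondrial nucleotide kinase, was at 1394, 1653 and 1434 and 172, 307 and 184 (log2 change -2.71, SE 0.14, adjusted p 1.98e-09), and Iigp1, an immunity GTPase, at 7251, 7799 and 7346 and 1183, 1579 and 1049 (log2 change -2.56, SE 0.11, adjusted p 2.10e-10). Oas2, another of the synthetases, was at 1481, 1584 and 1314 and 374, 342 and 372 (log2 change -1.96, SE 0.07, adjusted p 1.46e-11). These 3 fell without overlap as well. Herc6 (-2.31 (SE 0.10)), of a family of ubiquitin ligases, Trim30a (-2.11 (SE 0.09)), Mx1 (-1.72 (SE 0.15)) and Bst2 (tetherin, -1.43 (SE 0.12)) fell, as did the guanylate-binding proteins Gbp3 (-1.84 (SE 0.14)) and Gbp7 (-1.37 (SE 0.09)) and the immunity GTPases Igtp (-1.58 (SE 0.10)), Irgm1 (-1.11 (SE 0.08)) and Irgm2 (-1.48 (SE 0.11)). The RNA-activated kinase Eif2ak2 changed by -0.95 (SE 0.09), and Ifitm3, which blocks viral entry, by -0.67 (SE 0.06). Samhd1, a nucleotide hydrolase, was the member that rose, at 879, 822 and 794 in the control arrays and 1029, 1055 and 998 in the DEX arrays (log2 change 0.30, SE 0.07, adjusted p 0.00315), and Ifi27 (-0.10) and Oasl1 (0.00) did not pass. Genes outside the list that fell as far included Ddx60, an RNA helicase, at 759.9, 837 and 728 against 147, 169 and 132 (change -2.26 (SE 0.08)), Gbp6, at 4208, 4562 and 4435 against 729, 856 and 807 (change -2.44 (SE 0.06)), Slfn8 (-2.00 (SE 0.10)) and Ly6e (-1.88 (SE 0.12)). The less characterised Gm4951 was at 1701, 1814 and 1715 against 313, 354 and 293 (change -2.39 (SE 0.08)), and Gm9706, on a probe set that can bind related transcripts, at 999.7, 1102 and 983 against 181, 288 and 181 (change -2.20 (SE 0.13)).

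All 12 tested genes of MHC class I presentation passed, 11 lower and 1 higher (median -0.44). Psmb8, a catalytic subunit of the immunoproteasome that cuts peptides for presentation, was at 2196, 2107 and 2189 in the control arrays and 744, 964 and 768 in the DEX arrays (log2 change -1.38, SE 0.08, adjusted p 4.01e-09). The peptide transporter chains Tap1 and Tap2 changed by -1.05 (SE 0.08) and -0.63 (SE 0.06), and Nlrc5, the transcriptional activator of class I genes, was at 552, 603 and 565 against 310.5, 344 and 271 (change -0.87 (SE 0.08)). The groups did not overlap for these 4. The heavy chains H2-K1 (-0.57) and H2-D1 (-0.30) also fell, from near the top of the brightness range and on probe sets that can bind related class I genes. The trimming peptidase Erap1 was the member that rose (0.21 (SE 0.06)), and without control replicate 3 its adjusted p was 0.0592. It did not pass when the probe sets of each gene were averaged.

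The promoters of genes that fell were searched for GAAA and GAAA separated by 2 bases of any kind, the core of the interferon-stimulated response element that the Stat2 and Irf9 complex binds, on both strands. It was in 387 of the 12481 promoters (3.10%), in 22 of the 120 that fell more than 2-fold (18.3%), in 3 of the 90 that rose more than 2-fold (3.33%) and in 15 of the 40 promoters of the interferon lists (37.5%). Over all genes that passed, it was in 4.79% of the lower and 2.91% of the higher promoters. Among the 22 were Rsad2, Ifit1, Ifit3, Oas1a, Bst2, Gbp2, Gbp3, Gbp7, Igtp, Irgm1, Irgm2, Trim30a, Cxcl10 and Ddx60. The gamma-activated site TTCNNNGAA was in 7.28% of all promoters, in 11.7% of the more than 2-fold lower, in 15.6% of the more than 2-fold higher and in 27.5% of the interferon lists. The elements of 4 genes that fell are shown as 100 bases on the gene's strand, with the element in capitals, because Ifit1 and Ifit3 hold the element 2 times and the other pair 1 time. In all 4 the element lies on the strand opposite the gene, so that the capitals show its reverse complement. The windows are chr12:26456518-26456617 (minus strand), chr19:34583328-34583427 (plus), chr19:34640740-34640839 (plus) and chr7:104465194-104465293 (minus), all upstream of the start, in GRCm38.p6 as given by RefSeq.
Rsad2: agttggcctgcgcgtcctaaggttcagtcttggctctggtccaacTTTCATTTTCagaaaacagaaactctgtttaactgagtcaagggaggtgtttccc
Ifit3: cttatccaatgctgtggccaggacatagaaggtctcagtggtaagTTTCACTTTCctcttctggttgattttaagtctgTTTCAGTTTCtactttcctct
Ifit1: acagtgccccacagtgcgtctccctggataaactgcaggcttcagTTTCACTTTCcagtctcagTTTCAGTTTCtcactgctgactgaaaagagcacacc
Trim30a: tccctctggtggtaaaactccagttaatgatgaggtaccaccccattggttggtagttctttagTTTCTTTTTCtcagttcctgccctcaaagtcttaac
The first match lies 120 bases before the start in Rsad2, 156 in Ifit3, 104 in Ifit1 and 36 in Trim30a. Rsad2 (viperin), an antiviral radical enzyme, was at 3865, 4001 and 3677 in the control arrays and 385, 509.6 and 443 in the DEX arrays (log2 change -3.07, SE 0.09, adjusted p 1.53e-12), and Trim30a, a ligase that restrains inflammatory signalling, at 1621, 2014 and 2224 in the control arrays and 429, 472 and 414 in the DEX arrays (log2 change -2.11, SE 0.09, adjusted p 2.98e-10). Both were far lower in every DEX array.

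Because macrophages also carry interferon genes, their markers were set beside these results. Of 16 tested macrophage and leukocyte markers 1 rose, 3 fell and 12 did not pass, with a median of -0.01 and a summed intensity of 6192 to 6452 in control and 4916 to 5363 in DEX. Without control replicate 1, 2 markers rose. The defining markers Adgre1 (F4/80), Csf1r and Cd68 were at 108 ± 4.61 in control and 107 ± 5.59 in DEX, 445 ± 27.5 in control and 416 ± 20.7 in DEX and 82.3 ± 14.4 in control and 96.2 ± 4.19 in DEX, with changes of -0.02, -0.09 and 0.20, none of which passed. Cd53 (-0.01), Tyrobp (-0.11) and Laptm5 (-0.10) did not pass either. The 3 that fell were Mpeg1, Itgb2 and Lyz2, and Cd14 rose. The summed intensity of the 16 markers was lower in every DEX array than in any control array. The part of these markers in the interferon result was not tested.

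Of 28 tested chemokines and cytokines 10 fell, 4 rose and 14 did not pass (median -0.12), and members at both ends moved far. Cxcl10, an interferon-induced chemokine for T cells, was at 1388, 1581 and 1159 in the control arrays and 156, 184 and 169 in the DEX arrays (log2 change -2.90, SE 0.13, adjusted p 3.67e-10). Cxcl5, a chemokine for neutrophils, was at 533, 670.4 and 402 in the control arrays and 77.8, 65.9 and 52.1 in the DEX arrays (log2 change -2.75, SE 0.18, adjusted p 1.78e-08). The groups were apart for both. Il6, the main cytokine of the acute phase, was at 149.9, 160.2 and 108 in the control arrays and 51.8, 77.2 and 38.4 in the DEX arrays (log2 change -1.13, SE 0.18, adjusted p 0.000198). All DEX arrays were lower. Cxcl9, which shares its receptor with Cxcl10, was at 197, 203 and 201 and 121, 69.6 and 126 (log2 change -0.87, SE 0.15, adjusted p 0.000438), and Ccl5 at 525, 585 and 518 and 375, 268 and 441 (log2 change -0.59, SE 0.12, adjusted p 0.00202). The monocyte chemokines Ccl2 (-0.23) and Ccl7 (-0.23) did not pass, nor did Tnf (-0.03), Il1b (0.04) or the growth factor Csf1 (0.00). Cxcl1 was not called on the probe set used (0.27), while its other probe sets lay at -0.99 to -0.45, so its direction is unsettled. In the other direction, the chemokine Ccl6 went from 1973, 1627 and 997 to 11749, 10942 and 9793 (log2 change 2.86, SE 0.17, adjusted p 6.55e-09), and its relative Ccl9 went from 1588, 1352 and 1043 to 3663, 2964 and 3707 (log2 change 1.38, SE 0.13, adjusted p 1.12e-06), without overlap, and the B cell chemokine Cxcl13 rose by 0.49 (SE 0.06). The other probe set of Cxcl13 rose by 2.22, so the size of its change is unsettled.

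Among 26 genes of NF-kappaB and inflammatory signalling, 8 rose and 3 fell (median 0.02). The 8 are receptors, inhibitors or modulators of the pathway. Tnfaip3 (A20), a ubiquitin-editing inhibitor, was at 346, 296 and 245 in the control arrays and 642, 569 and 579 in the DEX arrays (log2 change 0.99, SE 0.11, adjusted p 9.49e-06). Il1r1, the interleukin 1 receptor, was at 441, 449.8 and 415 in the control arrays and 898, 735 and 767 in the DEX arrays (log2 change 0.85, SE 0.08, adjusted p 1.95e-06). Nfkbiz (0.55 (SE 0.10)), Tnip1 (0.26 (SE 0.07)), the TNF receptor Tnfrsf1b (0.49 (SE 0.07)) and Anxa1, the anti-inflammatory annexin that glucocorticoids induce (0.44 (SE 0.05)), rose less. The other probe set of Tnfrsf1b lay at 0.00 and did not pass. The subunits Rela (0.06), Nfkb2 (-0.07) and Relb (-0.20) did not pass, and the adhesion molecule Vcam1 (-0.46 (SE 0.06)) and the adaptor Myd88 (-0.26 (SE 0.05)) fell.

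Acute-phase proteins split. Of 17 tested genes 5 rose and 7 fell (median -0.06). Lcn2 (lipocalin 2), a binder of bacterial iron carriers, was at 113, 140.2 and 225 in the control arrays and 778, 1403 and 752 in the DEX arrays (log2 change 2.49, SE 0.29, adjusted p 9.70e-06), with DEX replicate 2 well above the other DEX arrays and all 3 above control. Hp, haptoglobin, which binds free haemoglobin, was at 8021, 6844 and 6701 in the control arrays and 19028, 19792 and 19798 in the DEX arrays (log2 change 1.44, SE 0.07, adjusted p 5.34e-10). The copper protein Cp (0.79 (SE 0.08)) and the serum amyloid Saa3 (0.87 (SE 0.18)) rose with them. The orosomucoids went the other way, with Orm1 at 7591, 7076 and 7004 in the control arrays and 3176, 3629 and 4031 in the DEX arrays (log2 change -1.00, SE 0.08, adjusted p 1.59e-07) and Orm2 changed by -1.14 (SE 0.09). Complement factor Cfb was at 1159, 997 and 923 against 418, 287 and 643 (change -1.23 (SE 0.19)), and the proteases C1ra and C1s1 of the classical pathway changed by -0.96 (SE 0.10) and -0.49 (SE 0.10). No DEX array overlapped control for Hp, Orm1 or Cfb.

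Genes of the extracellular matrix fell broadly. Collagens form the fibres of the matrix, and of 26 tested genes for collagens and their processing 15 fell and 2 rose (median -0.25). Col1a1 and Col1a2, the chains of the main fibrillar collagen, were at 8499.7, 7154 and 6047 in the control arrays and 3307, 2305 and 2801 in the DEX arrays for the former (log2 change -1.36, SE 0.12, adjusted p 6.58e-07) and changed by -0.83 (SE 0.06) for the latter. Col3a1 was at 16659, 16828 and 15818 in the control arrays and 8039.6, 6762 and 6801 in the DEX arrays (log2 change -1.19, SE 0.07, adjusted p 4.31e-09), and Col5a2 was at 6303, 5933 and 5456 and 2611, 2279.5 and 2361 (log2 change -1.28, SE 0.06, adjusted p 1.16e-09). For these genes the 2 groups of arrays did not overlap. Col15a1 of the basement membrane zone changed by -1.48 (SE 0.09), and Serpinh1, the collagen chaperone, by -0.76 (SE 0.11). The basement membrane chains Col4a1 (0.11) and Col4a2 (0.12) and the crosslinking enzymes Lox (0.10) and Loxl1 (0.00) did not pass. The type VI chains, prominent in fat tissue, diverged: Col6a2 fell by 0.50 (SE 0.05) and Col6a1 by 0.23 (SE 0.05), while Col6a3, the source of the peptide endotrophin, went from 7676, 7445 and 8005 to 10181, 9998 and 9795 (log2 change 0.37, SE 0.06, adjusted p 0.000153).

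Proteoglycans and matrix glycoproteins gave the same picture, with 20 of 33 lower and 3 higher (median -0.45). Dcn (decorin), which coats collagen fibrils, was at 9426, 7994 and 7092 in the control arrays and 2452, 2354 and 2287 in the DEX arrays (log2 change -1.77, SE 0.11, adjusted p 7.83e-09). The other Dcn probe set changed by -0.09 and did not pass, so the size of the change is unsettled. Thbs1, an activator of latent TGF-beta, was at 2740.3, 2066 and 1787 in the control arrays and 1093, 768 and 792 in the DEX arrays (log2 change -1.29, SE 0.22, adjusted p 0.000357). Both fell in every DEX array. Dpt (dermatopontin), which binds decorin, went from 3417, 3307 and 2614 to 406, 608 and 442 (log2 change -2.65, SE 0.12, adjusted p 3.67e-10), also without overlap. Postn (-0.90 (SE 0.11)), Aspn (-0.85 (SE 0.09)), Ogn (-0.55 (SE 0.10)), Sparc (-0.60 (SE 0.06)), fibronectin Fn1 (-0.53 (SE 0.09)) and nidogen Nid2 (-1.04 (SE 0.07)) fell too. Biglycan Bgn (0.07), Prelp (-0.02) and elastin Eln (-0.11) did not pass. Vcan (versican), a large hyaluronan-binding proteoglycan, was the clearest of the 3 that rose, at 525, 475 and 521 in the control arrays and 940.5, 982 and 924 in the DEX arrays (log2 change 0.88, SE 0.06, adjusted p 2.64e-08). Without control replicate 1 or without DEX replicate 2, it was 1 gene that rose.

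Of 19 proteases and inhibitors 3 rose and 8 fell (median -0.14). The tissue inhibitors of metalloproteases went in different directions. Timp3 was at 607, 649.6 and 763 in the control arrays and 217, 215 and 218 in the DEX arrays (log2 change -1.56, SE 0.08, adjusted p 9.83e-10), and Timp1 changed by -0.45 (SE 0.10). Timp4 was at 189.9, 203 and 195 in the control arrays and 522, 803 and 518 in the DEX arrays (log2 change 1.54, SE 0.15, adjusted p 1.76e-06), and Timp2 rose by 0.35 (SE 0.08). In neither Timp3 nor Timp4 did the groups overlap. Plat, the tissue plasminogen activator, was at 457, 385 and 272 and 132, 86.6 and 154 (log2 change -1.47, SE 0.17, adjusted p 1.07e-05), and Mmp3 (stromelysin) changed by -1.16 (SE 0.07) while Mmp2 (gelatinase) rose by 0.25 (SE 0.06). The other probe set of Plat lay at -0.13 and did not pass.

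The signalling genes of the TGF-beta, BMP and Wnt families, 35 tested, held 5 that rose and 9 that fell (median -0.03). The chains of the TGF-beta receptor moved apart: Tgfbr1 was at 1882, 1866 and 1873 in the control arrays and 1019.5, 1102 and 1075 in the DEX arrays (log2 change -0.81, SE 0.06, adjusted p 1.14e-07) and Tgfbr2 at 1504, 1427 and 1375 in the control arrays and 2489, 2506 and 2583 in the DEX arrays (log2 change 0.81, SE 0.06, adjusted p 1.78e-07). Each lay wholly on its own side of control. Smad3, which carries the signal to the nucleus, changed by -0.52 (SE 0.08), and the ligands Tgfb3 and Tgfb1 by -0.51 (SE 0.07) and -0.08, of which the latter did not pass. The other probe sets of Smad3 lay at -0.08 and -0.06, and neither passed. Sfrp2, a modulator of Wnt signalling, was at 1889.5, 1447 and 1551 and 549, 556 and 515 (log2 change -1.56, SE 0.08, adjusted p 2.29e-09), and Wnt5a changed by -0.98 (SE 0.06). Id3 and Id1, targets of BMP signalling that block helix-loop-helix factors, rose by 1.06 (SE 0.17) and 0.49 (SE 0.09). The matrix genes Tgfbi, named for its induction by TGF-beta (-2.05 (SE 0.10), on a probe set that can bind other transcripts), and Tnfaip6, a hyaluronan-binding protein (-2.02 (SE 0.17)), were among the largest decreases of all genes, as was Lrrc17 (-1.88 (SE 0.11)).

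Markers of preadipocytes and fibroblasts, which make much of the matrix, were set beside these counts. Of 18 tested markers 6 rose, 4 fell and 8 did not pass (median 0.02), and their summed intensity was 45991 to 50868 in control and 46478 to 52199 in DEX. Dlk1 (-1.00 (SE 0.10)), Pdgfrb (-0.91 (SE 0.08)), Twist1 (-0.80 (SE 0.11)) and Thy1 (-0.54 (SE 0.10)) fell. Gas6, the ligand of Mertk, was at 3133, 2343 and 2617 in the control arrays and 8321, 6434 and 7676 in the DEX arrays (log2 change 1.47, SE 0.12, adjusted p 2.38e-07). The other probe sets of Dlk1 and Gas6 lay at -0.20 and 0.08, and neither passed. Zfp521 (1.00 (SE 0.14)), Cd24a (at least 2.58-fold higher in DEX, adjusted p 1.82e-08), S100a4 (0.41 (SE 0.07)) and Twist2 (0.27 (SE 0.05)) rose, and Pdgfra (0.09), Acta2 (-0.06) and Pi16 (0.02) did not pass. Whether the share of such cells had a part in the matrix result was not tested.

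Fat cells make triglyceride from fatty acids that they take up or synthesise from acetyl-CoA, and from a glycerol backbone. Of 27 tested genes of fatty acid and triglyceride synthesis 22 fell and 2 rose (median -0.54). Acss2, which makes acetyl-CoA from acetate, was at 3579, 3084 and 3290.1 in the control arrays and 1181, 1027 and 1221 in the DEX arrays (log2 change -1.53, SE 0.08, adjusted p 1.26e-09). Acly, which makes it from citrate, was at 6965, 7263 and 7554 in the control arrays and 3300.3, 3226 and 3271 in the DEX arrays (log2 change -1.15, SE 0.08, adjusted p 2.26e-08). The groups were apart for both. Acaca, the enzyme of the committed step, changed by -0.54 (SE 0.08), and fatty acid synthase Fasn by -0.64 (SE 0.10). The elongases Elovl6 (-0.71 (SE 0.06)) and Elovl5 (-0.66 (SE 0.09)), the desaturases Fads2 (-0.93 (SE 0.10)), Scd2 (-0.82 (SE 0.06)) and Scd1 (-0.39 (SE 0.05)), and malic enzyme Me1 (-0.68 (SE 0.08)), a source of NADPH, fell with them. Scd1 lay near the top of the brightness range in control.

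The steps that join fatty acids to glycerol were lower as well. Pck1, which in fat cells serves the making of glycerol phosphate, was at 962, 823 and 866 in the control arrays and 144, 121 and 253 in the DEX arrays (log2 change -2.31, SE 0.19, adjusted p 2.01e-07), with DEX replicate 3 the highest of its group. Gpd1, the other source of glycerol phosphate, was at 14094, 13542 and 14765 and 7361, 6790.5 and 8561 (log2 change -0.90, SE 0.07, adjusted p 1.74e-07). Gpat3, the acyltransferase of the opening step, was at 4236, 4368 and 4162 in the control arrays and 1381, 1417 and 1316 in the DEX arrays (log2 change -1.62, SE 0.08, adjusted p 5.43e-10). None of these had overlapping groups. Agpat2 (-0.51 (SE 0.06)) and Dgat2 (-0.68 (SE 0.06)), which act on later steps, fell less. The lipins Lpin1 (0.18, adjusted p 0.0318) and Lpin3 (0.25, adjusted p 0.0402) were the 2 that rose, and without control replicate 1 or 2 neither passed (adjusted p 0.0745 and 0.145 for Lpin1, 0.135 and 0.0999 for Lpin3). The 2 became 1 on leaving out any DEX array, with a pseudocount of 64, the dim limit at the median or quantile normalization, and in a fit of control and DEX alone.

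Cholesterol synthesis had the highest share of lower members of the 43 lists. Of 20 tested genes of the pathway and its control 19 fell and 0 rose in limma, with 20 lower and 0 higher at an unadjusted p under 0.05 (median -1.43). The groups of arrays did not overlap for any of the 20, while 40.5% of all tested genes showed no overlap. Hmgcs1, an early enzyme of the pathway, was at 6204, 6432 and 6589 in the control arrays and 2232, 2240.3 and 2405 in the DEX arrays (log2 change -1.48, SE 0.07, adjusted p 5.60e-10). The mevalonate steps Mvk (-1.18 (SE 0.06)), Pmvk (-0.65 (SE 0.08)) and Mvd (-1.44 (SE 0.09)) and the isoprenoid steps Idi1 (-1.57 (SE 0.08)) and Fdps (-1.66 (SE 0.07)) all fell. Sqle, squalene epoxidase and a control point of the sterol branch, was at 4699, 4357 and 4579 in the control arrays and 1378, 1255 and 1477 in the DEX arrays (log2 change -1.72, SE 0.08, adjusted p 2.98e-10). The last steps, from lanosterol to cholesterol, were represented by Cyp51 (-1.20 (SE 0.07)), Msmo1 (-1.31 (SE 0.06)), Nsdhl (-1.15 (SE 0.08)), Hsd17b7 (-1.56 (SE 0.08)), Sc5d (-1.45 (SE 0.08)) and Dhcr7 (-1.43 (SE 0.08)). Tm7sf2, a sterol reductase, was at 1285, 1322 and 1289 in the control arrays and 320.3, 311 and 341 in the DEX arrays (log2 change -1.95, SE 0.08, adjusted p 2.06e-10). Srebf2, the transcription factor that drives the pathway, was at 1187, 1050.5 and 966 in the control arrays and 679, 571 and 608 in the DEX arrays (log2 change -0.77, SE 0.08, adjusted p 1.78e-06), each DEX array lower. Its partner Scap did not pass (-0.14), and Insig1, which retains the factor in the endoplasmic reticulum, changed by -0.91 (SE 0.12). Srebf1, the related factor of fatty acid synthesis, was at 1899.5, 1868 and 1904 in the control arrays and 2495, 2583 and 2490.1 in the DEX arrays (log2 change 0.41, SE 0.07, adjusted p 0.000266), higher in DEX.

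Genes of the lipid droplet and of lipolysis went both ways, with 6 of 24 higher and 11 lower (median -0.13). Pnpla2 (ATGL), the lipase that starts triglyceride breakdown, was at 10108, 9749 and 10366 in the control arrays and 14305, 13239.9 and 14967 in the DEX arrays (log2 change 0.49, SE 0.06, adjusted p 3.25e-05). Abhd5 (CGI-58), its activator, was at 3550.5, 3408 and 3541 in the control arrays and 6351, 6038 and 6017 in the DEX arrays (log2 change 0.81, SE 0.06, adjusted p 2.94e-08). G0s2, the inhibitor of that same lipase, was at 3005, 2630.5 and 2814 in the control arrays and 926, 957 and 1133 in the DEX arrays (log2 change -1.47, SE 0.09, adjusted p 1.18e-08). So the lipase and its activator lay higher and the inhibitor lower in all DEX arrays. The later lipase Mgll was at 889, 836 and 1020.4 and 391, 409.8 and 431 (log2 change -1.12, SE 0.08, adjusted p 3.26e-08), and hormone-sensitive lipase Lipe changed by -0.29 (SE 0.09), a call that was lost without control replicate 1, DEX replicate 1 or DEX replicate 2 (adjusted p 0.12, 0.0513 and 0.123). The Lipe call was also lost when the probe sets of each gene were averaged. The receptors that restrain lipolysis, Hcar1 for lactate (-0.87 (SE 0.16)), Hcar2 for ketone bodies (-0.73 (SE 0.11)) and Ffar2 for short-chain fatty acids (-0.76 (SE 0.08)), fell, as did the glycerol channel Aqp7 (-0.98 (SE 0.07)). Droplet proteins Plin3 (0.42 (SE 0.06)) and Cidea (0.63 (SE 0.08)) rose and Plin4 (-0.01) did not pass. The 11 that fell became 7 without control replicate 1 or without DEX replicate 2.

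Of 29 genes of fatty acid uptake and lipoprotein handling 4 rose and 12 fell (median -0.04). The apolipoproteins did not share a direction. Apoe, which clears lipoprotein remnants, was at 770.3, 654 and 594 in the control arrays and 193, 170.3 and 193 in the DEX arrays (log2 change -1.77, SE 0.09, adjusted p 1.63e-09). Apoc1 was at 8443, 7543 and 7191 and 3164, 3803 and 4991 (log2 change -0.97, SE 0.12, adjusted p 2.40e-05). Apoc3, an inhibitor of lipoprotein clearance, was at 111, 127 and 125 and 3651, 3889 and 4408 (log2 change 4.86, SE 0.07, adjusted p 1.26e-15). Each of the 3 lay wholly on its own side of control. The acyl-CoA synthetases Acsl3 (-1.47 (SE 0.07)) and Acsl4 (-0.51 (SE 0.07)), the phospholipid transfer protein Pltp (-0.86 (SE 0.08)) and the lipase inhibitor Angptl8 (-0.86 (SE 0.06)) fell. Lipoprotein lipase Lpl (0.01), the fatty acid transporter Cd36 (0.01), the transport protein Slc27a1 (0.03) and the cholesterol exporters Abca1 (-0.06) and Abcg1 (0.02) did not pass.

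**Figure D3:**
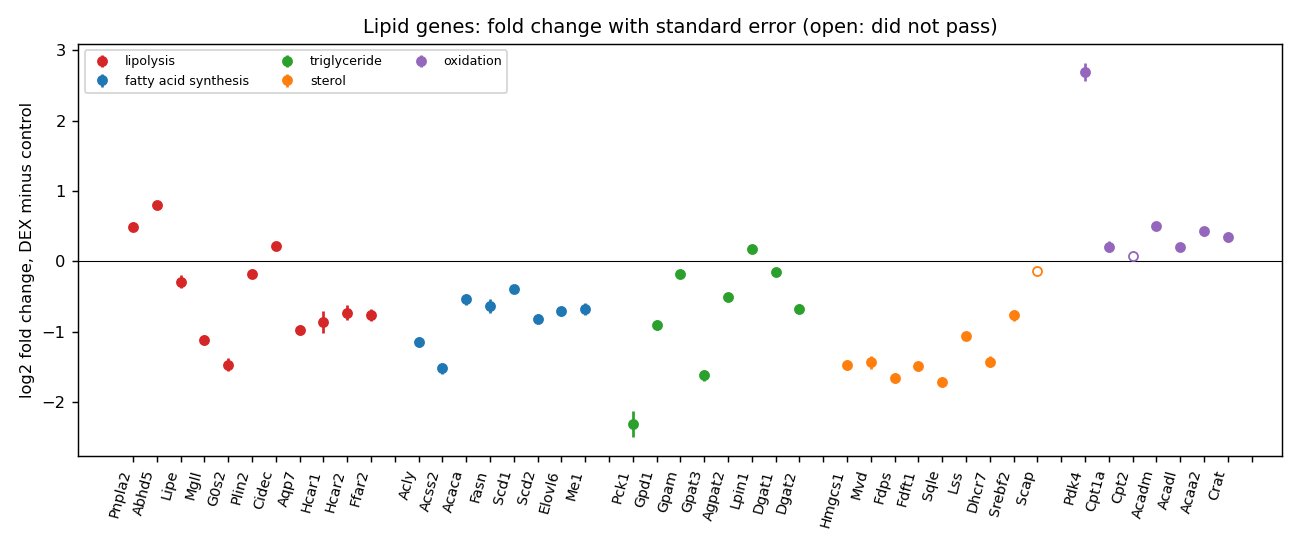
Log2 fold change (DEX minus control, y axis) with its standard error from limma for genes of lipolysis, fatty acid synthesis, triglyceride synthesis, sterol synthesis and oxidation, where open circles did not pass. Pnpla2 and Abhd5 lie above 0 and G0s2 below it, the sterol genes except Scap lie between Sqle at -1.72 and Srebf2 at -0.77, and Pdk4 stands at 2.70.

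Insulin acts through its receptor, adaptor proteins, the kinase Akt and the glucose transporter of fat and muscle. Of 42 tested genes of this pathway 8 rose and 14 fell (median -0.09). Irs1, the main adaptor in fat cells, was at 4684, 4492 and 4261 in the control arrays and 2305, 2069 and 2363 in the DEX arrays (log2 change -0.99, SE 0.07, adjusted p 2.44e-08). Irs2, the other adaptor, was at 447, 433 and 458 in the control arrays and 590.5, 608 and 602 in the DEX arrays (log2 change 0.42, SE 0.05, adjusted p 1.80e-05), higher in DEX. Slc2a4 (GLUT4), the transporter that insulin brings to the surface, was at 2722, 2380.2 and 2515 in the control arrays and 1339, 1355 and 1669 in the DEX arrays (log2 change -0.80, SE 0.08, adjusted p 1.57e-06). Irs1 and Slc2a4 fell and Irs2 rose with no overlap of the arrays. Akt2, the form of the kinase tied to glucose uptake, was at 2799, 2585 and 2726 and 1812, 1721 and 2010.5 (log2 change -0.55, SE 0.07, adjusted p 2.04e-05), and Gsk3b and the adaptor Grb14 changed by -0.40 (SE 0.08) and -0.62 (SE 0.10). Tbc1d4 (AS160), the Akt target that holds the transporter inside the cell, was at 454, 407 and 412 in the control arrays and 784, 724 and 837 in the DEX arrays (log2 change 0.86, SE 0.07, adjusted p 1.15e-07), and the regulatory subunit Pik3r1 of phosphoinositide kinase was at 3153, 2792 and 2683 and 3722, 3599 and 3813 (log2 change 0.37, SE 0.08, adjusted p 0.00347). Both were higher in each DEX array. The insulin receptor Insr was at 814 ± 40.0 in control and 926 ± 29.8 in DEX (log2 change 0.18, SE 0.06, adjusted p 0.0362). That call was lost on leaving out any array but control replicate 1 (adjusted p 0.0516 to 0.149). It was also lost with each array centred on its median and with averaged probe sets. The phosphatase Ptpn1 (-0.02), the mTORC1 subunit Rptor (0.00) and hexokinase Hk2 (0.08) did not pass. The 8 that rose became 5 without DEX replicate 1, and the 14 that fell became 9 without control replicate 1.

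In the list of the FOXO factors, which insulin restrains, and their targets, 13 of 20 tested genes rose and 3 fell (median 0.34). Foxo3 was at 663, 596 and 533 in the control arrays and 1051, 918 and 964 in the DEX arrays (log2 change 0.70, SE 0.08, adjusted p 5.56e-06), and Foxo1 changed by 0.38 (SE 0.07). Cdkn1b (0.67 (SE 0.12)), Sesn1 (0.78 (SE 0.08)) and the autophagy genes Gabarapl1 (0.45 (SE 0.07)) and Map1lc3b (0.35 (SE 0.06)) rose. Gadd45a (-0.85 (SE 0.12)) and Sesn3 (-0.85 (SE 0.07)) fell. The list shares Txnip, Ddit4 and Cdkn1a, which rose, and Klf15, which fell, with the receptor targets.

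Pyruvate dehydrogenase, the entry of pyruvate into oxidation, is set by kinases that shut it and phosphatases that open it. Pdk4, one of the kinases, was at 530.3, 451 and 431 in the control arrays and 3893, 2414 and 3248 in the DEX arrays (log2 change 2.70, SE 0.13, adjusted p 7.37e-10), lowest among the DEX arrays in replicate 2. Pdk2 rose by 0.61 (SE 0.08), while Pdk1 (0.00) and Pdk3 (0.06) did not pass. Pdp1, the phosphatase that opens the enzyme again, was at 633, 549 and 443 in the control arrays and 1382, 1193 and 962 in the DEX arrays (log2 change 1.10, SE 0.13, adjusted p 9.14e-06), also without overlap. Of 27 genes of the tricarboxylic acid cycle and pyruvate dehydrogenase 9 rose and 2 fell (median 0.05), led by Idh2 at 2185, 1905 and 1997 and 3108, 3352 and 3363 (log2 change 0.69, SE 0.07, adjusted p 1.49e-06) beside the kinases and the phosphatase. The other probe set of Idh2 lay at 0.06 and did not pass. The 2 that fell became 1 without control replicate 1 or 3 or DEX replicate 1 or 2, and 4 with quantile normalization, with a pseudocount of 64 or when a gene's probe sets were averaged. Citrate synthase Cs (-0.03) and pyruvate carboxylase Pcx (-0.16) did not pass.

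In fatty acid oxidation 9 of 22 rose and 2 fell (median 0.13). Acadm, the medium-chain dehydrogenase, was at 6277, 6027 and 6329 in the control arrays and 9228, 8189.7 and 9080.1 in the DEX arrays (log2 change 0.51, SE 0.06, adjusted p 7.34e-06). Acaa2 (0.43 (SE 0.06)) and Crat (0.34 (SE 0.07)) rose less, and Ehhadh of the peroxisome fell (-0.62 (SE 0.13)). Cpt1a, which admits fatty acids to mitochondria, was at 1244 ± 90.7 in control and 1442 ± 138 in DEX (log2 change 0.21, SE 0.07, adjusted p 0.0496), a call that was lost without control replicate 1 or 2 or DEX replicate 1 or 3 (adjusted p 0.076 to 0.213). The Cpt1a call was also lost with a pseudocount of 1, no dim filter, quantile normalization, median-centred arrays or averaged probe sets. A replicate block or a fit of control and DEX alone lost it as well. Cpt2 (0.08) did not pass. The count of 9 risen genes became 5 without control replicate 1, without control replicate 2 or without DEX replicate 3, and also with each array centred on its median or in a fit of control and DEX alone. The 2 that fell became 1 with the dim limit at the median of all probe sets. The respiratory chain was nearly level: of 69 tested genes 10 rose, 2 fell and 57 did not pass (median 0.07). The 10 became 3 without control replicate 1, control replicate 2 or DEX replicate 3 and 5 without DEX replicate 2 or in a fit of control and DEX alone. The 2 became 1 on leaving out any array but DEX replicate 2, in that fit, with a pseudocount of 1 and with a replicate block. Ndufv1 (0.27 (SE 0.05)) was the largest of the bright members that rose. Of 25 genes of glycolysis and glycogen 4 rose and 5 fell (median 0.01), and the 5 became 3 without control replicate 3 or without DEX replicate 1. Ppp1r3b, which targets the phosphatase to glycogen, was at 315, 285 and 316 in the control arrays and 122, 99.1 and 135 in the DEX arrays (log2 change -1.26, SE 0.12, adjusted p 1.75e-06), and Ldhb changed by -0.63 (SE 0.07). Each DEX array of Ppp1r3b was lower.

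Amino acid genes held 9 of 28 that rose and 2 that fell (median 0.08). Gpt2, the mitochondrial alanine transaminase, was at 977, 948 and 1168 in the control arrays and 1934, 2369.7 and 2327 in the DEX arrays (log2 change 1.09, SE 0.09, adjusted p 3.66e-07). Gpt, its cytosolic form, was at 3085, 2851 and 3223 in the control arrays and 1594, 1750.0 and 1903 in the DEX arrays (log2 change -0.80, SE 0.08, adjusted p 1.16e-06). The pair moved in opposite directions with no overlap in either. The other probe set of Gpt lay at -0.16 and did not pass. The transporters Slc43a1 (0.68 (SE 0.11)), Slc1a5 (0.64 (SE 0.07)), Slc1a3 (0.56 (SE 0.06)) and Slc7a5 (0.35 (SE 0.09)) rose, and Slc7a1 fell (-0.38 (SE 0.09)). Of 23 genes of branched-chain amino acid catabolism 6 rose and 6 fell (median -0.03), but 3 fell when a gene's probe sets were averaged. The opening transaminase Bcat2 was at 1446, 1332 and 1424 and 1736, 1932 and 2029 (log2 change 0.43, SE 0.07, adjusted p 0.00024), while Bckdhb, a subunit of the dehydrogenase of the next step, was at 3353, 3239 and 3755 and 2196, 2589 and 2499.6 (log2 change -0.50, SE 0.07, adjusted p 9.05e-05).

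The transcription factors of fat cell differentiation were mixed, 8 of 25 higher and 7 lower (median -0.02), but 6 higher and 7 lower without control replicate 2 and 7 higher and 8 lower without DEX replicate 3. Pparg, the master factor, was at 7239, 7017 and 6842 in the control arrays and 5080.0, 5808 and 5175 in the DEX arrays (log2 change -0.39, SE 0.07, adjusted p 0.000296). Cebpa, which sustains its expression, was at 6901, 6512 and 6406 in the control arrays and 5409, 4924 and 5895 in the DEX arrays (log2 change -0.29, SE 0.07, adjusted p 0.00434). The decrease was small in both, with no overlap. Klf5, an early factor, was at 197, 201 and 164 in the control arrays and 553, 456 and 435 in the DEX arrays (log2 change 1.29, SE 0.12, adjusted p 1.18e-06), and Rxra, the partner of Pparg, rose by 0.61 (SE 0.06). The other probe set of Klf5 lay at 0.09 and did not pass. Ebf1 (-0.19), Stat5a (-0.15) and Zfp423 (-0.14) did not pass.

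Of 16 adipokines and their receptors 3 rose and 4 fell (median 0.03). Agt, angiotensinogen, was at 5238, 5024 and 4650.3 in the control arrays and 15302, 15161 and 14592 in the DEX arrays (log2 change 1.59, SE 0.06, adjusted p 2.64e-11). Agtr2, a receptor for its product angiotensin II, was at 235, 212 and 201 in the control arrays and 22.2, 22.8 and 24.8 in the DEX arrays, all below the limit of 51.7 (at least 4.16-fold lower in DEX, adjusted p 2.25e-11). The precursor rose and the receptor fell without overlap. Nampt rose by 0.79 (SE 0.05), and Rarres2 (chemerin, -0.66 (SE 0.05)) and Nrg4 (-0.78 (SE 0.07)) fell. Leptin Lep (0.01), resistin Retn (0.05) and the adiponectin receptors Adipor1 (-0.09) and Adipor2 (0.03) did not pass. In the list of 14 adipocyte markers 2 rose and 6 fell (median -0.03), with summed intensities of 138615 to 140665 in control and 121552 to 130085 in DEX, and the 2 became 1 without control replicate 1, control replicate 2 or DEX replicate 3, with averaged probe sets or with the dim limit at the median. The marker Car3, carbonic anhydrase 3, fell most, at 10572, 10318 and 9927 against 653, 658 and 758 (log2 change -3.87, SE 0.06, adjusted p 2.82e-15). Of the 10 tested carbonic anhydrases 4 fell and 1 rose: Car2 was at 894, 881 and 867 and 416, 425 and 400.1 (log2 change -1.06, SE 0.07, adjusted p 9.65e-09), while Car5b of the mitochondria was at 1998, 1883 and 2075 and 5088, 4347 and 5267 (log2 change 1.29, SE 0.07, adjusted p 3.75e-09).

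Retinoid genes held 4 of 16 that rose and 2 that fell (median 0.04), and the 3 largest increases were of enzymes in sequence. Adh1, which oxidises retinol, was at 732, 661 and 709 in the control arrays and 1828, 2087 and 2005 in the DEX arrays (log2 change 1.47, SE 0.07, adjusted p 3.99e-10). Aldh1a1, which makes retinoic acid, was at 98.3, 107 and 83.2 and 2207, 1948 and 2021 (log2 change 4.21, SE 0.09, adjusted p 3.91e-14). Cyp26b1, which breaks retinoic acid down, was at 334, 389 and 317 in the control arrays and 1429, 1006 and 1526 in the DEX arrays (log2 change 1.86, SE 0.13, adjusted p 2.65e-08). All 3 lay above control on every DEX array. The retinoic acid receptors Rara (-0.09), Rarb (-0.08) and Rarg (0.13) did not pass, and Rdh11 fell (-0.96 (SE 0.07)). Of 16 genes of prostaglandin metabolism 3 rose and 3 fell (median 0.02), the latter 5 without DEX replicate 2. Ptgds, the prostaglandin D synthase, was at 618, 606 and 648 and 6295, 7479 and 6214 (log2 change 3.38, SE 0.08, adjusted p 2.39e-13), and Ptgis, the prostacyclin synthase, was at 1198, 1110.4 and 1193 in the control arrays and 3313, 3618 and 3024 in the DEX arrays (log2 change 1.49, SE 0.07, adjusted p 4.55e-10). Ptgfr, the receptor of prostaglandin F, was at 697, 645 and 646 and 260.1, 289 and 302 (log2 change -1.18, SE 0.07, adjusted p 6.69e-09), and Pla2g4a, the phospholipase that releases the precursor, changed by -0.46 (SE 0.06). Synthases rose and the receptor and phospholipase fell with no overlap in Ptgis or Ptgfr.

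P450 and conjugation enzymes included 10 of 37 that rose and 13 that fell (median 0.02). Cyp2e1, a P450 of ethanol and small solvents, was at 991, 1241 and 1235 in the control arrays and 11683, 12388 and 12557 in the DEX arrays (log2 change 3.39, SE 0.09, adjusted p 9.01e-13), far above control on each DEX array. Cyp1b1, a P450 of steroids and xenobiotics, was at 3292, 3291 and 3036 in the control arrays and 7872, 7107 and 6279.8 in the DEX arrays (log2 change 1.14, SE 0.08, adjusted p 4.29e-08), and Sult1a1, a sulfotransferase of phenols, changed by 0.81 (SE 0.07). The glutathione transferases split, with Gsta3 at 3.31 and Mgst3 and Gsto1 at 0.41 (SE 0.09) and 0.37 (SE 0.07), against Gstt3 (-1.06 (SE 0.09)), Gstt1 (-0.95 (SE 0.09)), Gstz1 (-0.71 (SE 0.07)) and Gstm5 (-0.48 (SE 0.07)). Of 26 antioxidant genes 6 rose and 6 fell (median -0.03), and the 6 that rose became 3 without control replicate 2. Sod3, the secreted superoxide dismutase, was at 3532, 3093 and 2966 in the control arrays and 1544, 1225 and 1539.8 in the DEX arrays (log2 change -1.15, SE 0.10, adjusted p 2.74e-07), and Gpx1, the main glutathione peroxidase, at 4107, 3903 and 4288 in the control arrays and 6941, 6814 and 6949 in the DEX arrays (log2 change 0.75, SE 0.06, adjusted p 1.39e-07). The former lay below and the latter above all control arrays. Of 14 genes of metal binding and transport 5 rose and 3 fell (median 0.10). Beside Mt1, Mt2 and Slc39a14, given above, the iron exporter Slc40a1 (-0.82 (SE 0.11)), the transferrin receptor Tfrc (-0.57 (SE 0.07)) and the metalloreductase Steap4 (-0.62 (SE 0.08)) fell.

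Growth factor genes were mixed, with 5 of 24 higher and 8 lower (median -0.04). Igf1, the growth hormone-dependent ligand, was at 3529, 2994 and 2902 in the control arrays and 1348, 1295 and 1285 in the DEX arrays (log2 change -1.25, SE 0.08, adjusted p 1.55e-08). Its receptor Igf1r was at 575, 587 and 606 in the control arrays and 808, 922 and 887 in the DEX arrays (log2 change 0.55, SE 0.06, adjusted p 4.51e-06), and the binding protein Igfbp3 was at 418, 357 and 325 and 1068, 885 and 902 (log2 change 1.34, SE 0.10, adjusted p 6.12e-08). Thus the ligand was lower and the receptor and binding protein higher in all DEX arrays. Kitl, the ligand of Kit, was at 1256, 1294 and 1359 in the control arrays and 4071, 3995 and 4056 in the DEX arrays (log2 change 1.62, SE 0.05, adjusted p 1.25e-11), Vegfc rose by 0.96 (SE 0.11), and Fgf7 (-1.11 (SE 0.14)) and Fgf2 (-0.74 (SE 0.12)) fell. Among 26 genes of MAP kinase feedback 5 rose and 9 fell (median 0.02). The sprouty inhibitors Spry4 (-1.02 (SE 0.22)), Spry2 (-0.80 (SE 0.17)) and Spry1 (-0.74 (SE 0.11)) and the phosphatase Dusp4 (-0.81 (SE 0.09)) fell, while Fosl2 (0.85 (SE 0.07)), Myc (0.69 (SE 0.13)) and Ets2 (0.58 (SE 0.14)) rose and Fos (0.04) and Egr1 (0.08) did not pass.

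Of 18 circadian clock genes 5 rose and 6 fell (median 0.06). Dbp, an output factor of the clock, was at 2582, 2272 and 2372 in the control arrays and 1029, 1298 and 1056 in the DEX arrays (log2 change -1.09, SE 0.08, adjusted p 1.28e-07), and Bhlhe40 changed by -0.76 (SE 0.11) and Per3 by -0.51 (SE 0.07). Arntl (BMAL1) was at 457, 373 and 410.4 in the control arrays and 555, 591 and 489 in the DEX arrays (log2 change 0.39, SE 0.08, adjusted p 0.00206), and Nfil3, which opposes Dbp at the same sites, at 338, 269 and 291 and 488, 565 and 362 (log2 change 0.61, SE 0.13, adjusted p 0.00214). Dbp was lower and Arntl and Nfil3 higher on every DEX array. Clock (0.10), Per2 (0.08) and Nr1d1 (0.14) did not pass. All cells were harvested at 1 time, so phase and level cannot be told apart. The cell cycle list held 12 of 30 that rose and 3 that fell (median 0.15), with Ccnd1 (cyclin D1) at 1360.0, 1305 and 1263 in the control arrays and 2139, 1918 and 1876 in the DEX arrays (log2 change 0.59, SE 0.07, adjusted p 1.51e-05), Rrm2 (0.80 (SE 0.09)) and Top2a (0.44 (SE 0.09)) higher, Cdkn2c, an inhibitor of cyclin D kinases, lower (-0.62 (SE 0.05)), and Mki67 (0.10), Cdk1 (-0.07) and Pcna (0.01) not passing. Of 26 genes of endoplasmic reticulum stress 7 rose and 5 fell (median -0.02). The 5 became 2 without control replicate 3, DEX replicate 1 or DEX replicate 3 and 3 without control replicate 2 or in a fit of control and DEX alone. Herpud1 (0.41 (SE 0.10)), Atf6 (0.40 (SE 0.07)) and Ppp1r15a (0.51 (SE 0.12)) rose, and Atf4 (-0.02) and Ddit3 (-0.13) did not pass.

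Markers of other cells that a culture or tissue could hold were low or little moved. Of 11 brown adipocyte markers 2 rose and 2 fell, and the 2 that rose lay under the dim limit when it was set at the median, so they were not tested there. Ucp1, the uncoupling protein that defines brown fat, was at 83.4 ± 2.84 in control and 82.8 ± 4.12 in DEX (-0.01) and did not pass, and Prdm16 was at 96.1 ± 2.66 in control and 103 ± 7.62 in DEX. Cidea (0.63 (SE 0.08)) and Elovl3 (0.41 (SE 0.06)) rose, and Ppargc1a (-0.35 (SE 0.08)) and Ebf2 (-0.38 (SE 0.08)) fell. Of 7 endothelial markers 1 rose and 1 fell, the former lost without control replicate 1 or 3 or DEX replicate 1, in a fit of control and DEX alone or with the dim limit at the median, and the latter without control replicate 1 or DEX replicate 2 or with averaged probe sets, with the defining Cdh5 at 56.6 ± 1.42 in control and 59.9 ± 4.49 in DEX and Kdr at 319.6 ± 1.04 in control and 335 ± 17.4 in DEX, neither passing. Of 10 muscle markers 0 rose and 3 fell, and without control replicate 1, 1 rose. Their summed intensity was 1798 to 1890 in control and 1625.5 to 1700 in DEX. Des was among the 3 that fell, a call that was lost without control replicate 3. At an unadjusted p under 0.05 limma gave 1 as higher, the muscle factor Myod1 (0.12), which did not pass, and Myog (0.01) did not pass either.

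**Figure D4:**
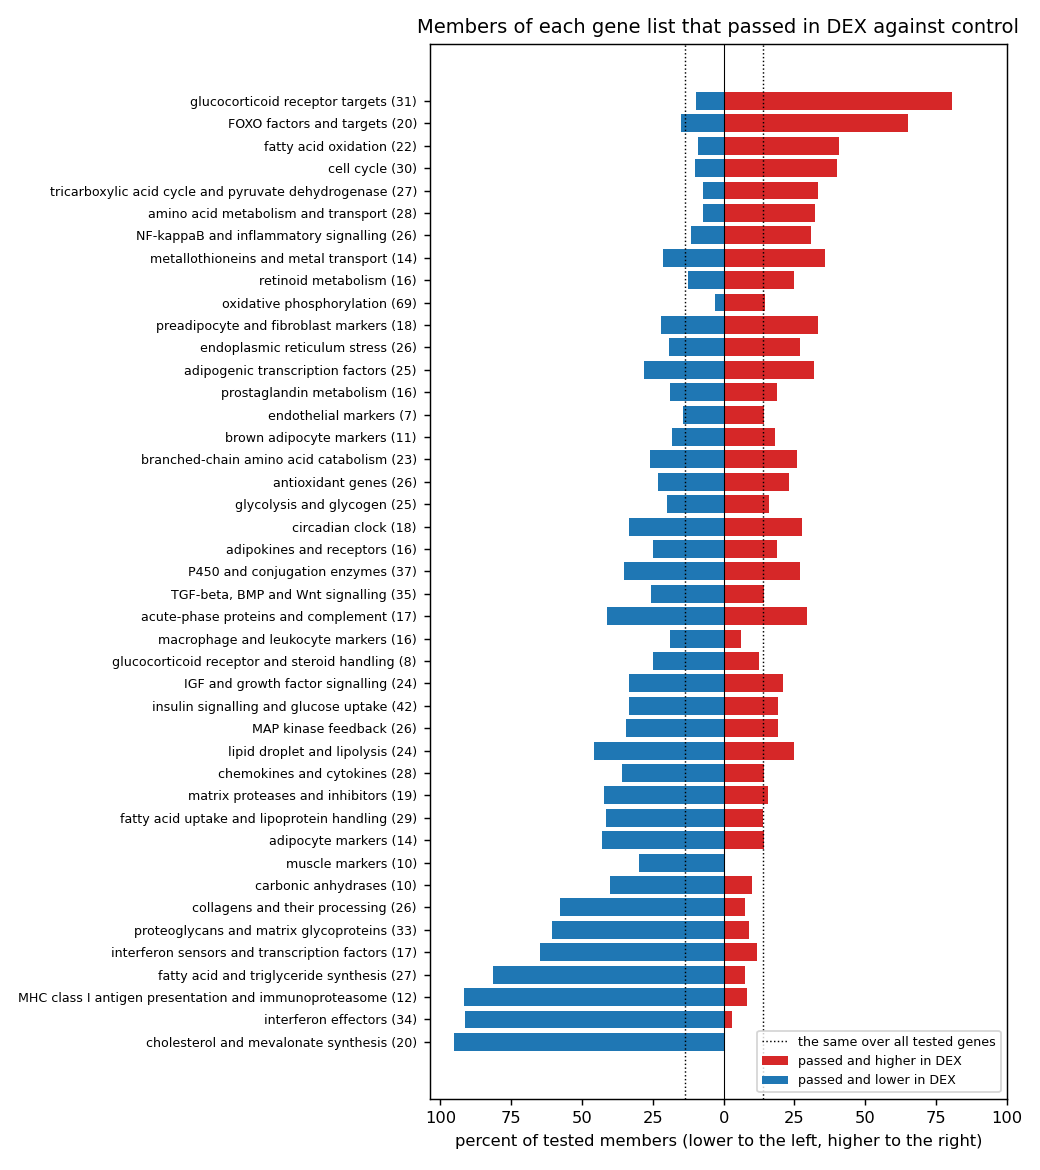
Percent of the tested members of each of the 43 gene lists (numbers in brackets) that passed and were higher (red, to the right) or lower (blue, to the left) in DEX, with dotted lines at the shares of all tested genes, 14.0% and 13.6%. Receptor targets (25 of 31) lead the higher lists, and cholesterol synthesis (19 of 20), MHC class I presentation (11 of 12) and the interferon effectors (31 of 34) the lower ones. The lists were chosen with earlier results of these data known.

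DEX was also compared directly with the other treatments, in contrasts that hold no control array. DEX differed from TNF in 5645 genes (36.1%) and from CI in 5311 (34.0%). Genes that passed in the same direction against control, TNF and CI numbered 906 higher (5.80%) and 1095 lower (7.01%) in DEX. These 3 contrasts share the DEX arrays. Among the higher genes with the largest smallest difference were Pdk4, at a mean of 451 in TNF and 325 in CI against 3185 in DEX, Mertk (274 and 225 against 1716), Fkbp5 (1414 and 1144 against 8045) and Tsc22d3 (852 and 830.0 against 4000.1). For Fkbp5 the log2 difference was 2.50 from TNF (limma adjusted p 1.66e-13) and 2.80 from CI (adjusted p 2.17e-13). The interferon genes Zbp1, Gbp6, Oasl2, Herc6, Ddx60, Ifit3 and Trim30a were among the 15 lower genes with the largest smallest difference. Gbp6 was at 5467 in TNF and 4857 in CI against 797 in DEX, differences of -2.76 (adjusted p 1.66e-13) and -2.59 (adjusted p 1.42e-12).

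Other genes that DEX changed differed less from TNF, or differed from it in the other direction. Lcn2 was at 978 ± 368 in DEX (SD, n = 3) but at 4471 ± 1973 in TNF, so that DEX lay lower by -2.14 (adjusted p 3.36e-05). Ccl9 was at 3445 in DEX and 8832 in TNF (difference -1.36, adjusted p 9.53e-07). Haptoglobin Hp was at 19539 and 20854 (difference -0.09, adjusted p 0.299), near the top of the brightness range, where differences may be compressed. Lcn2 and Ccl9 thus lay higher in TNF than in DEX, and the difference for Hp did not pass. Ampd3 was at 517 ± 14.2 in DEX and 505 ± 87.2 in TNF, a difference of 0.05 that did not pass (adjusted p 0.715), and Lrrc17 at 185 and 236 (difference -0.33, adjusted p 0.0379). Agt was lower in TNF (3137) and CI (3329.5) than in DEX (15018), by 2.25 and 2.17 as DEX minus each (adjusted p 4.28e-13 and 2.68e-12). Of the genes of insulin action, Slc2a4 was at 1734 in TNF, 2329 in CI and 1454 in DEX, and Irs1 at 3985, 3625 and 2246. DEX minus TNF was -0.26 for Slc2a4 (adjusted p 0.0191) and -0.82 for Irs1 (adjusted p 1.46e-07).

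**Figure D5:**
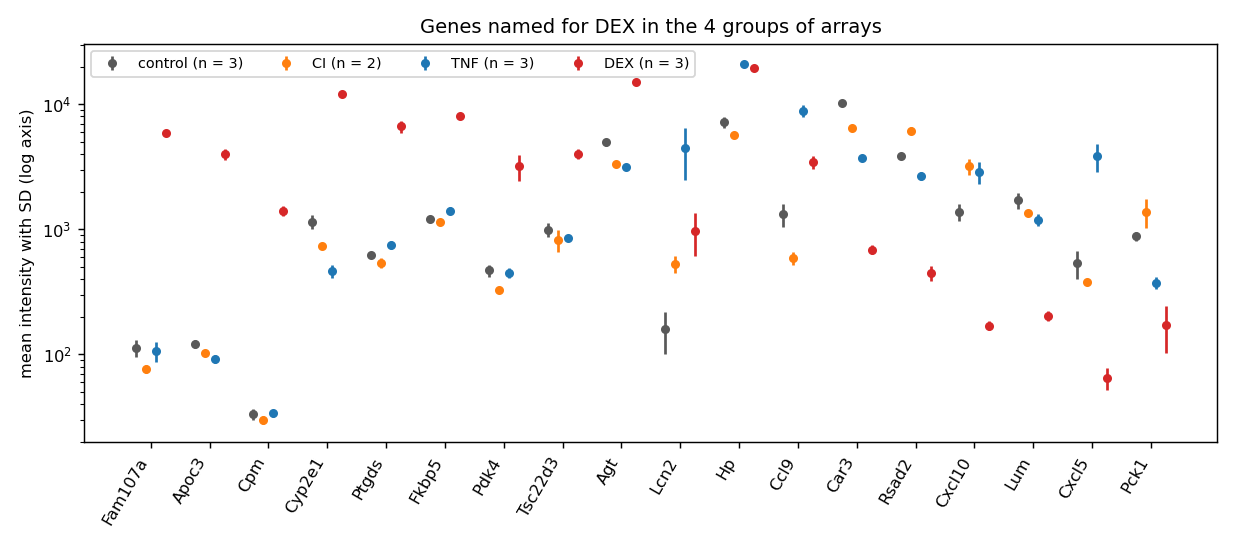
Mean intensity with SD between arrays (log axis) of 18 genes in control (n = 3), CI (n = 2), TNF (n = 3) and DEX (n = 3). Fam107a, Apoc3, Cpm and Fkbp5 have their highest mean in DEX, Lcn2 and Ccl9 are higher in TNF than in DEX, and Rsad2, Cxcl10 and Lum are lowest in DEX.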

How the data were processed

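The authors deposited their values as 1 table of linear intensity with a column per array and 45101 probe sets. The deposited intensities came from biotin-labelled cRNA of total RNA, per the labels' protocols, and their background correction, summarisation and normalization are not given in the sources used here. All groups were taken from the sample titles. As the quartiles of the log2 values of the 6 arrays differed by less than 0.1, no further normalization was applied.

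Probe sets were named through the platform annotation, in which 34945 had 1 symbol, 932 several and 9160 none, and 64 control probe sets were set aside. Of the 34945, 34741 were found again by gene identifier, with 0 symbols updated. Probe sets with several symbols named no gene. For 9010 genes the brightest of several probe sets was used. A two-sided limma test (version 3.58.1, R 4.3.3, with lmFit and eBayes) was fitted on log2(intensity + 16) over all 11 arrays with a mean per group (7 residual and 7.59 prior degrees of freedom), and p-values were adjusted by Benjamini-Hochberg over 15623 genes. The fit was tested on simulated data. Errors beside log2 changes are standard errors, and values per array are given in the order of replicates 1 to 3. The number of arrays limits the precision.

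The text names the 30 highest and 30 lowest changes among genes that passed without overlap of the arrays, members of 43 lists (1131 entries, of which 1002 were tested), and the 15 genes in each direction that differed most from all 3 other groups. Ccn and other renamed symbols were matched by 7 hand-checked aliases in the lists. The members and the lists were chosen with earlier results of these data known. Alternatives were other pseudocounts, dim filters, scalings and probe set rules, the compared groups alone, a replicate block and leaving out each array. Promoters were RefSeq's, and motifs were searched with Python 3.11.15. Proteins and a genome were not used here.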

Additional observations from a re-analysis of the deposited data

Results flagged for a closer look

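In DEX replicate 2, 8 Affymetrix control probe sets, which are used in no comparison above, lay above all control arrays. They measure the bacterial RNAs Dap, Lys and Thr, which kits add to a sample as labelling controls. The Dap 3' probe set was at 512.8, against 131.0 to 137.7 in control and 101.0 to 119.9 in the other DEX arrays, and the Dap middle probe set was at 183.5, against 54.0 to 57.8 in control. The second design of the Dap probe sets read 726.5 (3', 150.0 to 169.6 in control) and 266.6 (middle, 62.4 to 69.5 in control). The Lys 3' probe sets read 188.8 (63.7 to 69.8 in control) and 52.9 (20.3 to 22.8 in control). For Thr the 3' probe sets read 228.0 (90.5 to 97.2 in control) and 235.0 (90.7 to 101.5 in control). The hybridization spike probe sets, added later, differed little between the groups, with a median log2 difference of -0.05 between the DEX and control means over 18 probe sets. That value does not single out DEX replicate 2. There the BioB 3' spike probe set was at 339.5, against 364.8 to 396.6 on the other arrays. The part of this array in single genes was not tested beyond the fits without it. Groups of 3 arrays were not searched for outlying values of single genes.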

How the results depend on the processing

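The count of genes that passed was 3937 to 4414 under other pseudocounts, dim filters, scalings, the mean of all probe sets of a gene and the compared groups alone, and 3462 to 3937 on leaving out each array in turn. Testing every probe set on its own gave more because more features were tested: 6886 of 27826 probe sets passed, 3521 higher and 3365 lower, 190 and 269 of them by more than 2-fold, with 8861 in DEX against TNF and 8838 in DEX against CI. Of 539 named genes that passed, 434 kept their call and direction in every alternative run and 105 lost the call in at least 1. Of 437 that did not pass, 80 passed in at least 1. Of 314 with another probe set tested, 243 had one that passed in the same direction and 0 in the opposite. Those without one included Dcn (other probe set at -0.09), Plat (-0.13), Klf5 (0.09), Gas6 (0.08), Idh2 (0.06), Dlk1 (-0.20), Gpt (-0.16), Smad3 (-0.08 and -0.06) and Tnfrsf1b (0.00). With the mean of all probe sets, Adipor2 turned to -0.21 (adjusted p 0.0134) and Agpat3 to 0.15 (adjusted p 0.0227), from values that did not pass. Over all genes that passed in a direction, the motif shares were 0.615% of higher and 0.419% of lower genes for the shortened palindrome, 4.79% of lower genes for the interferon-stimulated element and 7.49% for the gamma-activated site among higher genes.

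Same-numbered DEX and control arrays deviated from their group means with correlations of 0.277, 0.0195 and 0.106 for numbers 1, 2 and 3. DEX replicates 1 and 3 each correlated best with the control array of their own number, but DEX replicate 2 with control replicate 3 (0.2). The numbers are shared by the titles only, so the arrays were not treated as pairs. A replicate block gave 4393 genes against 4316. Dim genes have compressed changes on this scale, and genes near the highest intensities may be compressed as well.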

Other observations

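The direct contrast with the chronic insulin arrays held further differences of fuel and growth factor genes. Insr, the insulin receptor, was at a mean of 605 in CI and 926 in DEX (DEX minus CI 0.60, limma adjusted p 5.21e-06). Errfi1, the inhibitor of the epidermal growth factor receptor, was at 1063 in CI and 652 in TNF against 3283 in DEX, so that the difference was 1.60 from CI and 2.30 from TNF. Pck1, the enzyme of glycerol phosphate supply, was at 1389.7 in CI, 374 in TNF and 172 in DEX, differences of -2.94 (adjusted p 3.79e-08) and -1.11 (adjusted p 0.000289). AW112010, an immune transcript, was at 2779 in TNF, 688 in CI and 251 in DEX, which is -3.39 from TNF and -1.41 from CI. Of these 4 genes DEX held the highest mean of the 3 treatments for Insr and Errfi1 and the lowest for Pck1 and AW112010.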
